A study of Mus musculus with 6 samples.

Results

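Complement genes were examined in Gli1+ and Gli1- cells of mouse cartilage. The 8 genes, out of 54532 rows in the gene count table, were those named C3, C4b, C1ra, C1s1, Cfb, Serping1, Cd55 and Masp1, and all 8 were among the 14801 genes with enough counts to be tested. The cells came from Gli1-CreERT2; tdTomato mice on a C57BL/6 background at 1 month of age, harvested 24 h after tamoxifen, and both populations came from the same mice. The CreERT2 enzyme is driven from Gli1, a target of hedgehog signalling, and the tdTomato label it leaves is permanent. Gli1+ cells were sorted as CD45-CD31-Ter119- tdTomato+ and Gli1- cells as CD45-CD31-Ter119- tdTomato-, so leukocytes, endothelial cells and erythroid cells should have been removed from both. The labels give growth plate as the tissue, whereas the study's methods describe chondrogenic cells released from costal cartilage. There were 3 libraries per population. The study's methods call them biological replicates. The labels name no separate mouse for each library, so the p-values measure only the spread between these samples.

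Complement is a set of proteins that mark particles and cells for removal. In the classical pathway the protease C1r activates C1s, which cleaves C4. In the lectin pathway the MASP proteases act on C4 and C2. In the alternative pathway factor B joins C3 to form the enzyme that cleaves more C3. All routes meet at C3, and host cells are guarded by inhibitors such as the C1 inhibitor (Serping1) and CD55 (decay accelerating factor). Most plasma complement is made by the liver, and fibroblasts and chondrocytes also make components locally.

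C4b was the clearest difference: its level in Gli1+ cells was 0.334 of that in Gli1- cells, and the 3 libraries of one population lay wholly below the 3 of the other. Serping1 was at 0.342 and C1s1 at 0.463 of the Gli1- level, both lower in all 3 replicate pairs. Without Gli1- replicate 2 the log2FC of Serping1 went from -1.55 to -0.71 and that of C1s1 from -1.11 to -0.57. C1ra, whose product works together with C1s, was at 1.12 of the Gli1- level, with the populations overlapping. C3, the most abundant of the 8 per gene length, had no difference beyond the spread between libraries. No gene of the 14801 passed edgeR's quasi-likelihood test at an adjusted p of 0.05 and an absolute log2FC over 1, the members included (0.0% of genes called), and the smallest adjusted p was 0.9999. At an unadjusted p under 0.05 the test found 514 genes, and 30 genes were called by DESeq2, 0 of them members. With the replicate number as a block, DESeq2 called 428 genes, 2 of them members, C4b and Serping1.

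The library totals lay between 17114101 and 18602482 counts. Genes detected numbered 15000 in Gli1+ replicate 1 and 20666 to 23360 in the other libraries. Gli1 itself was counted 86, 104 and 152 times in Gli1+ replicates 1 to 3 and 14, 19 and 46 times in Gli1- replicates 1 to 3. Every Gli1+ library was above every Gli1- library, as the sort labels would have it (log2FC 2.09 ± 0.68 SE, adjusted p = 0.9999 in edgeR and 0.0189 in DESeq2 with replicate block). The last was 0.503 or 0.537 without both libraries of replicate 2 or 3. Gli1- replicate 1 stood apart in leukocyte transcripts. The summed level of 12 neutrophil genes was 4045 CPM (counts per 1000000, scaled by TMM) there and 16.4 to 86.6 in the other 5 libraries, with S100a9 at 1395 CPM against 2.99 to 34.2. Some macrophage markers were also highest in that library, while Cd14, Cd68, Mrc1, Cx3cr1 and C1qc were highest in others. Cd14 was at 332 CPM there and 421 in Gli1- replicate 2, and Cd68 at 63.8 and 155. Lyz2 was at 581 CPM there and 0.945 to 5.90 elsewhere, Mpeg1 at 223 and 0.263 to 5.34, Csf1r at 54.1 and 1.26 to 3.60, and Adgre1 at 30.4 and 0 to 0.307. The summed level of 13 macrophage genes was 1292 CPM in Gli1- replicate 1, 346 and 585 in the other Gli1- libraries and 77.9 to 343 in Gli1+ cells, and outside Gli1- replicate 1 it was mostly Cd14 and Cd68. Of the 12 neutrophil genes 9 were tested, all 9 with a negative log2FC (49.9% of all genes had one). Outside Gli1- replicate 1 the populations overlapped in the summed neutrophil level. It was 46.8, 86.6 and 16.4 CPM in Gli1+ replicates 1 to 3 and 46.7 and 18.4 CPM in Gli1- replicates 2 and 3. Summed levels in Gli1+ and Gli1- cells were 4.34 to 6.30 and 5.87 to 23.5 CPM for 8 endothelial genes, 2.28 to 18.3 and 12.6 to 37.5 CPM for 11 lymphocyte genes, 79.3 to 469 and 104 to 208 CPM for 8 erythroid genes, and 1.06 to 36.8 and 3.86 to 25.9 CPM for 8 skeletal muscle genes. The summed level of 14 chondrocyte genes was 9425, 27794 and 10505 CPM in Gli1+ replicates 1 to 3. In Gli1- replicates 1 to 3 it was 9342, 36750 and 8133 CPM, so replicate 2 was the highest in each population. Of these genes, Col2a1 and Acan were present in every library, at 2130 to 13534 CPM for Col2a1 and 591 to 2620 CPM for Acan. Matn1 had 0 counts in Gli1+ replicate 1.

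Promoters are shown for C1ra and C1s1, the neighbouring pair of C1 proteases, and for C3, the most abundant member. The pair was picked because its ratio, itself chosen after the values were seen, did not overlap between the populations. The sequences are from RefSeq (GRCm38.p6, the files' build), 250 bases before to 50 after the start of transcription, 5′ to 3′ on the gene's strand. RefSeq promoters were matched for 4 of the 8 genes (C3, C1ra, C1s1 and Cd55). Capitals mark matches on either strand to the IRF core AANNGAAA, the GAS motif TTCNNNGAA, the NF-kB motif GGNNTTNCC or the C/EBP motif TTGCNNAA, where N is any base. The regions are chr6:124512371-124512670 (plus strand), chr6:124542310-124542609 (minus strand) and chr17:57228087-57228386 (minus strand).
C1ra: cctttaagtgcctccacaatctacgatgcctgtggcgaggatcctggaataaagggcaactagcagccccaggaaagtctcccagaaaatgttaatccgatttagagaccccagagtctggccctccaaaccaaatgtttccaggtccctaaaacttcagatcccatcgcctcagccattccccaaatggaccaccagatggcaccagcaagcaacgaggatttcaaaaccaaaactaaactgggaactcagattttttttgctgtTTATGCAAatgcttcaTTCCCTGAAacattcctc
C1s1: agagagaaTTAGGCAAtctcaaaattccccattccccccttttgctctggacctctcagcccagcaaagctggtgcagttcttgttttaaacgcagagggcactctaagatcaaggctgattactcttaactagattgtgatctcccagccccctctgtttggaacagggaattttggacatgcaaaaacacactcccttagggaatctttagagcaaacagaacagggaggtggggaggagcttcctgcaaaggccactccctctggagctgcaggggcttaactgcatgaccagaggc
C3: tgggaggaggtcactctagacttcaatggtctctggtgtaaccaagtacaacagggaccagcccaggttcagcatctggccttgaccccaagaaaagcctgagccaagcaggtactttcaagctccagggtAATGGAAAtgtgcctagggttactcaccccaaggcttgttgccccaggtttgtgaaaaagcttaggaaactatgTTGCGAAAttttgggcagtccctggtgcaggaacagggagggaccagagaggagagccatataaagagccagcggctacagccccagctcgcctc
C1ra held a C/EBP match 16 bases after the start and a GAS match 32 bases after it. C1s1 held a C/EBP match 242 bases before the start, absent from the second RefSeq start of the gene, whose window begins further downstream. Cd55, whose promoter is not printed, held an NF-kB match 61 bases before the start. C3 held an IRF core match 119 bases and a C/EBP match 45 bases before the start. Of 32851 promoters, 23.9% held an IRF core match, 8.30% a GAS match, 16.0% an NF-kB match and 10.8% a C/EBP match. These are matches of letters only.

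Among the proteases and components of the classical pathway, C4b (chr17:34728380-34743882, mm10, minus strand) encodes complement C4, which forms part of the C3-cleaving enzyme. It was at 70.7, 62.8 and 104 CPM in Gli1+ replicates 1 to 3 and at 256, 207 and 249 CPM in Gli1- replicates 1 to 3. Every Gli1+ library was below every Gli1- library, a pattern seen for 4.45% of all genes tested (and 4.04% in the higher direction), and 1 of the 8 members had it in the lower direction and 0 in the higher. The log2FC was -1.58 ± 0.40 (SE; 95% interval -2.50 to -0.67) and edgeR's unadjusted p was 0.0039. The adjusted p was 0.9999 in edgeR and 6.05e-05 in DESeq2 with replicate block. Without both libraries of replicate 1, 2 or 3 the DESeq2 adjusted p was 2.95e-08, 0.103 or 0.0697. In the 3 pairs the log2 difference was -1.86, -1.72 and -1.26. C4b shares 48.8% of its 31-base words with its copy C4a, whose counts amounted to 1.83% of those of C4b. Reads between them may be split by counting, since the handling of multi-mapping reads was not given in the sources used here.

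C1s1 (chr6:124530345-124542359, minus strand) encodes C1s, the protease that cleaves C4. It was at 14.9, 23.5 and 14.8 CPM in Gli1+ cells and 28.1, 63.4 and 23.2 CPM in Gli1- cells. The populations overlapped by 1 library each, Gli1+ replicate 2 lying just above Gli1- replicate 3. The log2FC was -1.11 ± 0.51 (SE), with an unadjusted p = 0.0594 in edgeR and 0.0172 with replicate block. DESeq2 with replicate block gave an adjusted p of 0.127, and 0.0074, 0.859 and 0.589 without the libraries of replicate 1, 2 and 3. C1s1 was lower in all 3 pairs, with log2 differences of -0.91, -1.43 and -0.65. Its copy C1s2 shares 36.5% of its 31-base words and had counts equal to 2.98% of those of C1s1.

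C1ra (chr6:124512405-124523443, plus strand) encodes C1r, the protease that activates C1s, and lies beside C1s1. It was at 24.1, 61.2 and 39.9 CPM in Gli1+ cells and 21.5, 67.7 and 22.5 CPM in Gli1- cells, so in each population replicate 2 was the highest. The log2FC was 0.16 ± 0.59 (SE; 95% interval -1.19 to 1.51; unadjusted p = 0.787 in edgeR), and the interval does not exclude a change of either sign. The direction turned when Gli1+ replicate 2, Gli1- replicate 1 or Gli1- replicate 3 was left out. Its copy C1rb shared 56.9% of 31-base words and had counts equal to 0.467% of those of C1ra.

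The ratio of C1ra to C1s1 within a library does not depend on library scaling. Given per gene length, it was 1.69, 2.74 and 2.84 in Gli1+ replicates 1 to 3 and 0.801, 1.12 and 1.02 in Gli1- replicates 1 to 3, with no overlap between the populations. C1ra was thus above C1s1 in all 3 Gli1+ libraries and close to it in Gli1- cells, a 2.43-fold difference in geometric mean. An exact two-sided permutation test gave p = 0.1, the smallest p that 3 libraries against 3 allow. The C1ra to Serping1 ratio was 2.18, 2.36 and 8.22 against 0.734, 0.870 and 1.49 (3.54-fold, exact permutation p = 0.1), and that of C3 to C4b was 3.64, 3.17 and 3.34 against 2.45, 1.06 and 1.17 (2.33-fold, exact permutation p = 0.1). The ratio of C1s1 to Serping1 overlapped between the populations (exact permutation p = 0.6). These 4 ratios were chosen after the values were seen, so neither the lack of overlap nor the p-values can serve as a test. Their Benjamini-Hochberg adjusted p, over these 4 alone, was 0.133 for the first 3 and 0.6 for the last. The share of other gene pairs whose ratio does not overlap was not computed.

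**Figure D1:**
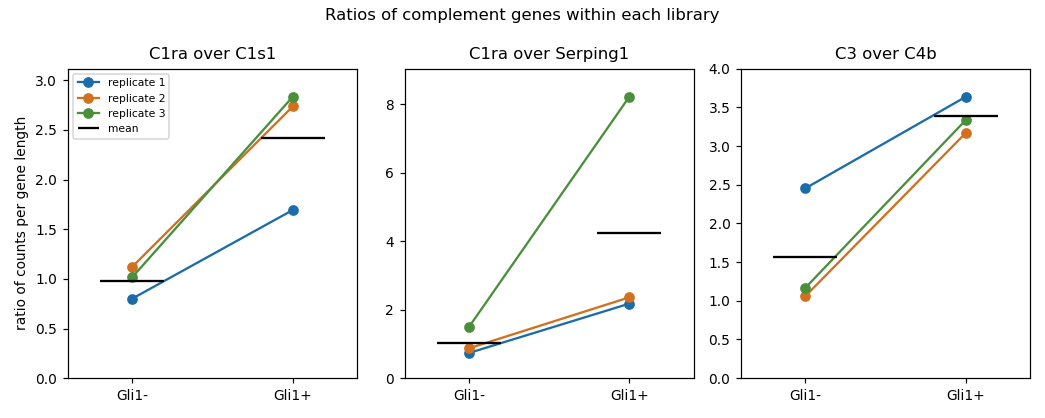
Ratio of counts per gene length of C1ra to C1s1, C1ra to Serping1 and C3 to C4b (linear axes from 0) in each library, with lines joining libraries of the same replicate number and black bars the mean of 3 libraries. In all 3 panels the 3 Gli1+ libraries lie above the 3 Gli1- libraries; for C1ra to C1s1 they lie at 1.69 to 2.84 against 0.801 to 1.12.

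Masp1 (chr16:23449417-23520815, minus strand) encodes a lectin-pathway protease. It was counted 46, 21 and 9 times in Gli1+ cells and 16, 20 and 17 times in Gli1- cells, so its level (0.473 to 2.43 CPM in Gli1+ cells) was low throughout. The log2FC was 0.46 ± 0.88 (SE; unadjusted p = 0.615 in edgeR), and it became -0.23 without Gli1+ replicate 1. A difference was not detectable at this depth.

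C3 (chr17:57203970-57228136, minus strand), the component on which all pathways converge, was at 232, 180 and 314 CPM in Gli1+ cells and 568, 198 and 263 CPM in Gli1- cells. The highest library was Gli1- replicate 1, the one with leukocyte transcripts, and the other 5 lay between 180 and 314 CPM. The log2FC was -0.50 ± 0.52 (SE; 95% interval -1.70 to 0.69; unadjusted p = 0.361 in edgeR). Without Gli1- replicate 1 it was 0.07. C3 was lower in pairs 1 and 2 and higher in pair 3. The part of leukocyte RNA in the C3 level was not tested.

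**Figure D2:**
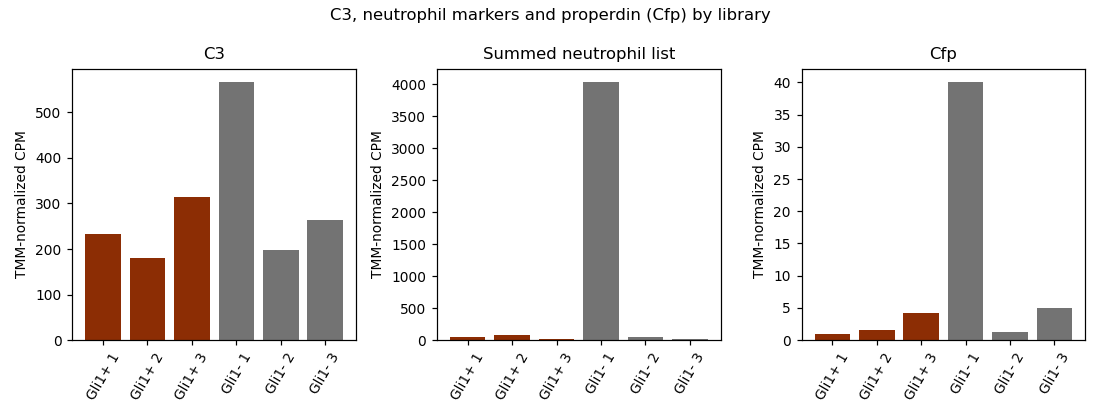
TMM-normalized CPM (linear axes from 0, 1 bar per library) of C3, of the sum of 12 neutrophil genes and of properdin (Cfp), in 3 Gli1+ (brown) and 3 Gli1- (grey) libraries. Gli1- replicate 1 is the highest bar in each panel, at 568 CPM for C3, 4045 for the neutrophil genes and 40.1 for Cfp.

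Cfb (chr17:34856374-34862518, minus strand), factor B of the alternative pathway, was counted 0, 109 and 155 times in Gli1+ cells and 16, 60 and 50 times in Gli1- cells. The library with 0 counts was Gli1+ replicate 1, in which 15000 genes were detected against 20666 to 23360 in the others. Counting error alone allowed a level of up to 0.159 CPM there (3 counts of its scaled total). This bound takes no account of the fewer genes detected in that library, so the level may have been higher. In the other Gli1+ libraries the level was 6.69 and 8.14 CPM, above the 0.827 to 3.98 CPM of Gli1- cells. The log2FC of 0.99 ± 1.41 (SE; unadjusted p = 0.501 in edgeR) varied with the libraries and the test. It was 1.57 without Gli1+ replicate 1, 0.43 without Gli1+ replicate 3, 0.58 without Gli1- replicate 1, and -0.18 in DESeq2 with replicate block. In the annotation, 79.5% of the exon bases of Cfb are shared on the same strand with Gm20547, which had 0 counts in every library.

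Serping1 (chr2:84765387-84775444, minus strand) encodes the C1 inhibitor, which blocks C1r, C1s and the MASP proteases. It was at 8.62, 20.2 and 3.78 CPM in Gli1+ cells and 22.8, 60.7 and 11.8 CPM in Gli1- cells. The levels overlapped between populations, since replicate 2 was the highest and replicate 3 the lowest in each, yet each Gli1+ library was below the Gli1- library with the same number. The log2 difference was -1.39, -1.58 and -1.61 in pairs 1 to 3, the narrowest range over pairs of the 8 members. The log2FC was -1.55 ± 0.79 (SE; unadjusted p = 0.0838 in edgeR) and -1.54 ± 0.28 (SE; unadjusted p = 0.0021, adjusted p = 0.350) in edgeR with replicate block. DESeq2 with replicate block gave an adjusted p of 0.0024, and 3.81e-06, 0.461 and 0.385 without the libraries of replicate 1, 2 and 3.

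Cd55 (chr1:130439027-130462744, minus strand), a membrane inhibitor of the C3-cleaving enzymes, had few counts, 11, 45 and 14 in Gli1+ cells and 48, 45 and 18 in Gli1- cells. It was at 0.582 to 2.76 CPM and 0.952 to 2.98 CPM. The log2FC was -0.65 ± 0.90 (SE; unadjusted p = 0.490 in edgeR) and negative in all 3 pairs, between -1.90 and -0.11. Leaving out 1 library moved the log2FC to between -1.70 (without Gli1+ replicate 2) and -0.32 (without Gli1+ replicate 1).

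**Figure D3:**
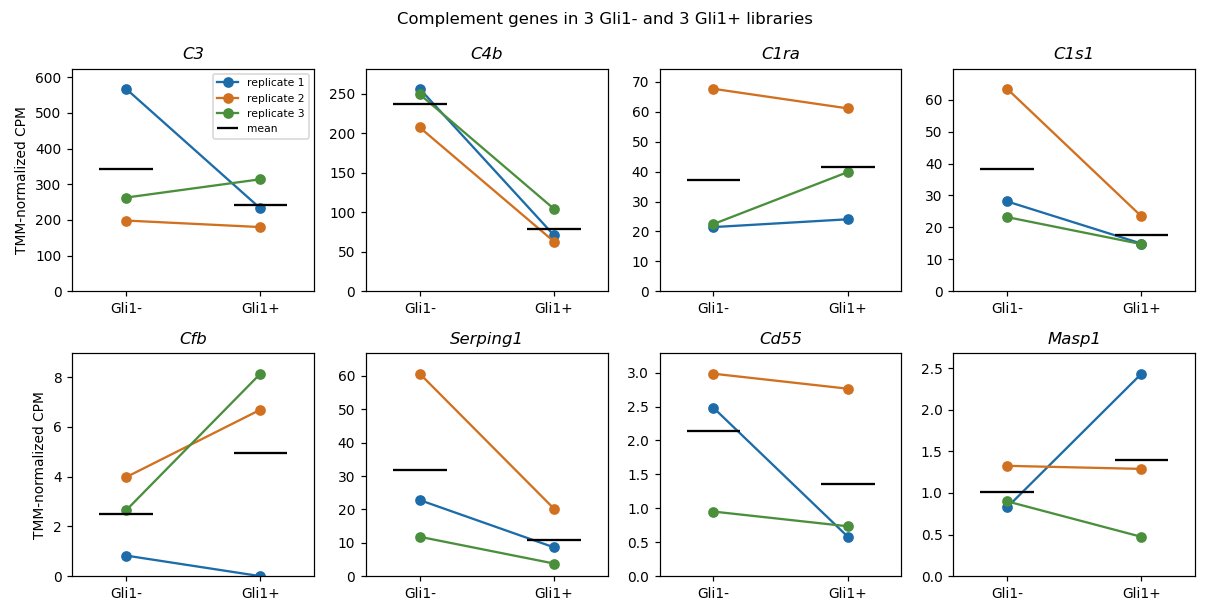
TMM-normalized CPM of 8 complement genes in 3 Gli1- and 3 Gli1+ libraries (linear axes from 0, a scale for each gene), with lines joining libraries of the same replicate number and black bars for group means. The lines fall in every pair for C4b, C1s1, Serping1 and Cd55, and C4b is the one gene whose populations do not overlap.

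**Figure D4:**
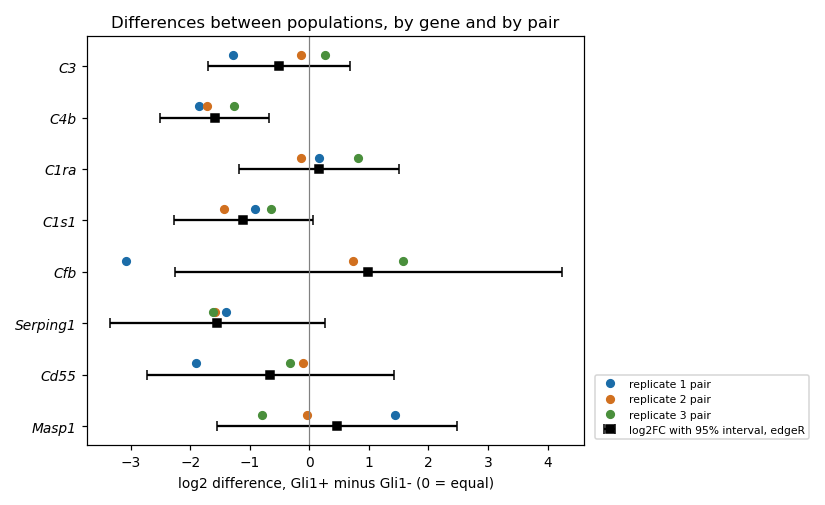
Log2 difference of 8 complement genes, Gli1+ minus Gli1-: black squares with 95% intervals from edgeR over 3 libraries per population, and coloured points for each replicate pair (log2 CPM with a prior count of 2). The C4b interval (-2.50 to -0.67) lies wholly below 0 and the other 7 cross 0.

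Over the 8 members, 5 had a negative and 3 a positive log2FC, with a median of -0.58, against a median of 0.0013 and 49.9% negative over all genes tested. At an unadjusted p under 0.05, 1 member was lower (2.04% of all genes were) and 0 were higher. With replicate block in edgeR, 3 were lower, C4b, Serping1 and C1s1 (5.25% of all genes were). In DESeq2 with replicate block 2 of 8 were called lower (2.39% of 13079 genes with an adjusted p were), and 4 of 8 were lower in all 3 pairs (19.8% of all genes were). The summed CPM of the members was 354, 358 and 486 in Gli1+ cells and 900, 606 and 574 in Gli1- cells, and the sum is mostly C3 and C4b. Per gene length (TPM, median over the 6 libraries), the order of levels was C3 (198), C4b (69.3), C1ra (40.1), C1s1 (24.8), Serping1 (18.9), Cfb (3.21), Cd55 (0.981) and Masp1 (0.294). Every gene overlapped its neighbour in this order in the range over libraries, for example C3 (74.9 to 404) and C4b (23.6 to 166), or C1s1 (16.0 to 41.3) and Serping1 (5.74 to 53.2). As a share of the summed TPM of the 8, C4b made up 12.9 to 17.9% in Gli1+ libraries and 24.7 to 37.7% in Gli1- libraries, while C3 made up 40.8 to 60.6% and 26.4 to 60.6%. In bulk samples fewer cells of a type and less RNA per cell cannot be told apart.

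Another 48 complement genes were listed by role, of which 19 had enough counts to be tested and 4 (Mbl1, Mbl2, C8a and Cd55b) had 0 counts in every library. None of the 19 was called by edgeR, where 3 (Clu, C5ar1 and Itgb2) had an unadjusted p under 0.05, all lower (2.04% of all genes were), and the median log2FC was -0.41. Clu (clusterin, an inhibitor of the terminal complex) was by far the most abundant, at 837, 3105 and 1569 CPM in Gli1+ cells and 4635, 11214 and 4838 CPM in Gli1- cells, with no overlap. Its log2FC was -1.91 ± 0.70 (SE, adjusted p = 0.9999 in edgeR), and DESeq2 with replicate block called it lower (adjusted p = 6.46e-07). Leaving out 1 library moved the log2FC of Clu to between -2.53 (without Gli1+ replicate 2) and -1.39 (without Gli1- replicate 2). Cd59a, an inhibitor of the terminal complex, was at 6.72, 7.43 and 2.57 CPM against 1.19, 4.38 and 0.635 CPM, and Cd93, a receptor linked to C1q, was at 20.4, 13.1 and 5.67 CPM against 10.7, 2.12 and 2.17 CPM. Both were higher in all 3 pairs, opposite in direction to Clu, with log2FC of 1.43 ± 0.86 (SE) and 1.39 ± 0.81 (SE) that edgeR did not call. Leaving out 1 library moved Cd59a to between 0.998 (without Gli1- replicate 3) and 2.56 (without Gli1- replicate 2), and Cd93 to between 0.87 (without Gli1+ replicate 1) and 2.59 (without Gli1- replicate 1). Cr1l, a membrane regulator of C3 and C4 cleavage, was at 73.1 to 130 CPM in Gli1+ cells and 63.3 to 113 CPM in Gli1- cells. Cr1l too was higher in all 3 pairs, with a log2FC of 0.25 ± 0.42 (SE; unadjusted p = 0.563 in edgeR). The share of all genes higher in all 3 pairs was not computed. The C1q genes C1qa, C1qb and C1qc, most terminal components and C2 had too few counts to be tested.

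Some receptors and properdin (Cfp), which stabilizes the C3-cleaving enzyme of the alternative pathway, moved with the leukocyte transcripts of Gli1- replicate 1. C5ar1, the receptor for the C5a fragment, was counted 9, 17 and 5 times in Gli1+ cells and 1017, 11 and 14 times in Gli1- cells. Itgb2, a subunit of the C3 fragment receptors, was counted 81, 51 and 37 times against 3334, 54 and 28 times, and Cfp was counted 17, 26 and 81 times against 776, 19 and 94 times. Each had its highest value in that library, and without it the log2FC was -0.31 for C5ar1, 0.29 for Itgb2 and -0.47 for Cfp. Outside that library Cfp was highest in the replicate 3 libraries, at 81 and 94 counts. The part of leukocyte RNA in these receptor values was not tested.

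**Figure D5:**
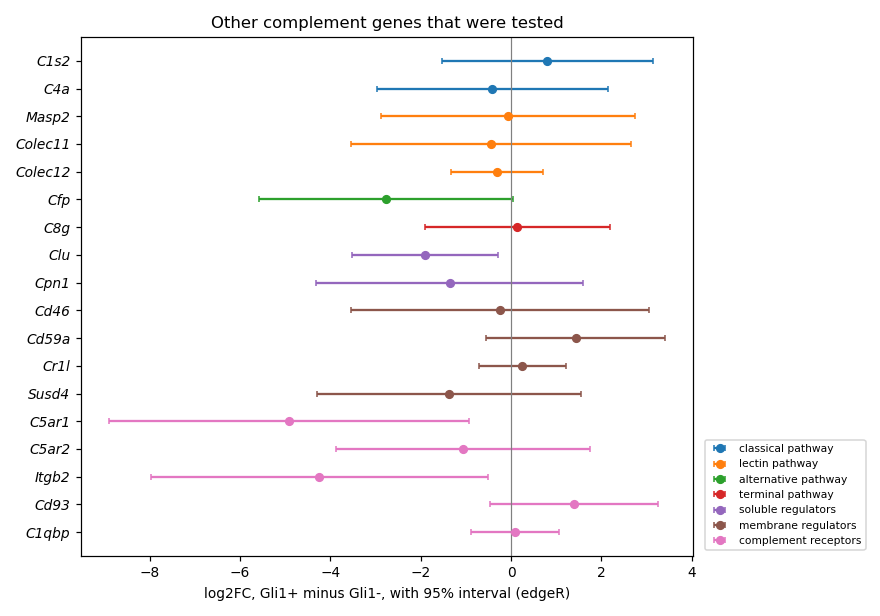
Log2FC (Gli1+ minus Gli1-, edgeR) with 95% intervals of 18 other complement genes that were tested, coloured by role. The intervals of Clu, C5ar1 and Itgb2 lie below 0, and those of the remaining 15 cross 0.

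The genes whose profile over the 6 libraries was nearest to the median profile of the members, among 8451 genes with a mean of 10 CPM or more, were Nfil3, Fam220a, Fbxo4, Zfp395 and Bcat2. The measure was the root mean square difference of centred log2 CPM, which was 0.101 for Nfil3 and 0.134 for Bcat2, against a median of 0.796 over all candidates. C1s1 was the member closest to the profile (0.259, rank 78). The other members among the candidates lay near the middle of all genes or little closer. They were C1ra (0.615, rank 2479), Serping1 (0.724, rank 3537), C4b (0.775, rank 4038) and C3 (0.833, rank 4543). The median profile thus describes C1s1 better than these members, and the genes nearest to it need not resemble them. Among members, C1s1 and Cd55 (0.545) and C1s1 and Serping1 (0.633) lay closest.

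Genes of other lists were examined beside C4b, Serping1 and C1s1, and edgeR called 0 of them. At an unadjusted p under 0.05 in edgeR, 3 genes of the interferon and NF-kB list and 1 fibroblast gene were lower (2.04% of all genes were). Over all genes DESeq2 with replicate block called 2.39% lower, and 49.9% had a negative log2FC in edgeR. Of 21 tested genes of the interferon and NF-kB list, 19 had a negative log2FC (median -0.72), and DESeq2 with replicate block called 2 lower, Ifit1 and Ifit3. The most abundant gene of the list, Nfkbia, was at 268 to 1154 CPM in Gli1+ cells and 640 to 1686 CPM in Gli1- cells. Ifit1, an interferon-induced gene, was at 10.3, 10.8 and 9.51 CPM in Gli1+ cells and 37.2, 101 and 63.2 CPM in Gli1- cells, and was named after its values were seen. Of 12 fibroblast and perichondrium genes, 11 had a negative log2FC (median -1.22), with Dcn and Col1a2 the most abundant and 3 genes, Col3a1, Dpt and Pdgfra, called lower by DESeq2 with replicate block. Of 12 genes of the dissociation stress list, 11 had a negative log2FC and 7 (Fos, Fosb, Jun, Atf3, Hspa1a, Hspa1b and Zfp36) were called lower by DESeq2 with replicate block, and their summed level was 2197 to 17242 CPM in Gli1+ cells and 12884 to 34908 CPM in Gli1- cells. For 14 chondrocyte genes the median log2FC was -0.17, with 4 positive, and 2 (Comp and Matn1) were called lower by DESeq2 with replicate block. The part of these groups in the complement values was not tested.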

How the data were processed

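The authors deposited 1 table of counts, whole numbers of reads per gene in each of 6 poly-A libraries, with no normalization. Per the submitters' processing notes, HISAT2 2.0.5 and featureCounts 1.5.0-p3 were used with mm10; the strand setting, the annotation release and the treatment of multi-mapping reads were not given in the sources used here. GENCODE M21 lists 54409 of the 54532 rows, 98.3% of them at identical coordinates, all 8 members included. Genes were filtered with filterByExpr (minimum count 10), scaled by TMM and tested with edgeR 4.0.16 (quasi-likelihood, no block; adjusted p 0.05, absolute log2FC 1; Benjamini-Hochberg adjustment) in R 4.3.3. Library totals of 17114101 to 18602482 counts and 3 libraries per group set the precision. DESeq2 1.42.0 and limma 3.58.1 were alternatives. The code was tested on simulated data. Deviations from group means correlated between libraries of the same number (Pearson r 0.223, 0.720 and 0.471), although Gli1+ replicate 1 correlated slightly more with Gli1- replicate 3 (0.275), so the numbers were taken to pair the samples, which the study says came from the same mice. No library was a duplicate of another. The members and lists were chosen with earlier results of these data known. The rule for named genes took all members, Gli1, at most 4 of the most abundant genes of each complement role and 2 of each other list, near-identical copies and overlapping genes, and the 5 genes nearest to the members' median profile; any other gene was named after its values were seen. Columns of coordinates and gene lengths were used as annotation. One listed complement gene is counted in the list totals and is not reported here by name.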

Additional observations from a re-analysis of the deposited data

How the results depend on the processing

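The limits are 3 libraries per group, a Gli1+ library with fewer genes detected, and a Gli1- library with leukocyte transcripts. Over all genes 0 were called by edgeR and also with 2 other scalings, limma-voom, 2 other filters, the newer quasi-likelihood fit, and the replicate block in edgeR (smallest adjusted p 0.307) or limma-voom, and without each of the 6 libraries (lowest 0, highest 0, for members and other complement genes too). The call counts moved to 30 with DESeq2, 267 with no filter and 428 with DESeq2 with replicate block, and to 781, 174 and 71 when the last was rerun without the libraries of replicate 1, 2 and 3 (added after seeing the data). Called members numbered 2 with DESeq2 with replicate block and 3 without replicate 1 (0 without replicate 2 or 3). Other complement genes called numbered 4 with no filter, 1 with DESeq2 with replicate block, and 3, 2 and 1 without the libraries of replicate 1, 2 and 3. The Gli1 log2FC of 2.09 became 2.21 in DESeq2 with replicate block and 1.998 without replicate 1, both past the threshold. It was 2.16 and 2.51 without replicate 2 and 3 in that fit (adjusted p = 0.503 and 0.537, not called), and lay between 1.76 and 2.66 without each library in turn.

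Direction turned in these cases, and the cause was not tested. C3 was 0.065 without Gli1- replicate 1 (-0.82 to 0.065 over each library left out) and 0.048 in DESeq2 with replicate block without replicate 1. C1ra was -0.23, -0.12 and -0.10 without Gli1+ replicate 2, Gli1- replicate 1 and Gli1- replicate 3 (-0.23 to 0.90 in all). Cfb was -0.91 with limma-voom, and -0.18, -1.39 and -1.91 with DESeq2 with replicate block over all pairs, without replicate 2 and without replicate 3. Masp1 was -0.23 without Gli1+ replicate 1 (-0.23 to 0.86 in all) and -0.48 in DESeq2 with replicate block without replicate 1. Cfp was 0.020 in that last fit, and Itgb2 was 0.080 there and 0.29 without Gli1- replicate 1 (-4.86 to 0.29 in all). Colec12 was 0.10 in DESeq2 with replicate block without replicate 2. C4b, C1s1, Serping1, Cd55, Clu, Cd59a, Cd93, Cr1l and C5ar1 kept their direction under every alternative that gave a value, C4b between -1.84 and -1.45, Serping1 between -2.37 and -0.71 and C1s1 between -1.38 and -0.57.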
